A study of Mus musculus with 16 samples.

Results

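The genes described here are 8 writers, erasers and readers of DNA methylation: the methyltransferases Dnmt1, Dnmt3a and Dnmt3b, the dioxygenases Tet1, Tet2 and Tet3, and the methyl-DNA binding proteins Uhrf1 and Mbd2. They were chosen by symbol from the 24015 rows of the deposited table, and all 8 were found. Expression was measured in microglia, the resident macrophages of the brain, sorted as live CD11b-positive, CD45-low cells from the hippocampus of mice aged 3 months (young) or 20 months (aged). Each age had 6 samples, numbered as in the labels, and no treatment or transgene is named. The strain is given as C57BL/6, except that the label of aged 5 and of both libraries of aged 6 ends in another digit. The labels give neither sex nor whether a sample came from 1 animal or several, so each p-value reflects how far these samples spread, which may be partly technical.

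Each sample was a full-length cDNA library with 11.4 M recovered reads in young 1 and 23.4 to 47.3 M in the remaining samples made from 1 library. In the 4 samples that combine 2 technical replicate libraries (young 2, young 4, aged 3 and aged 6) depth was estimated at 52.1 to 58.2 M reads. Values are the authors' normalized counts, that is, reads scaled to correct for depth. Defining microglial genes were abundant at both ages, with P2ry12 at a mean of 199938 in young and 176254 in aged samples and Tmem119 at 227643 and 222139.

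DNA methylation in mammals lies mainly on cytosines followed by guanine (CpG). Dnmt3a and Dnmt3b place new methyl groups, while Dnmt1, brought to newly copied DNA by Uhrf1, restores the pattern on the daughter strand. Tet enzymes oxidise the methyl group and so start its removal, and proteins such as Mbd2 bind methylated CpG and recruit repressive complexes. Dnmt3a and Tet2 are also known as genes that are often mutated in ageing blood stem cells.

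No age difference in any of the 8 genes passed the test across all genes. All 8 were tested among 11579 genes, and 0 of 8 passed an adjusted p of 0.05 (limma, Benjamini-Hochberg), against 1.73% of all tested genes. At an unadjusted p under 0.05 the count was 1 of 8, Tet1, against 10.8% of tested genes. On the reads recovered from the 8 samples with 1 library, edgeR called 0 of 8 (0.786% of tested genes) and DESeq2 0 of 8 (2.03%). In no gene did the ages separate fully over the 12 samples, which 1.87% of tested genes did. The median log2 difference, aged minus young, was -0.05 over the 8 genes and 0.0016 over all tested genes, and 5 of the 8 lay below 0, against 49.5% of tested genes. Every sample had at least 63.7 normalized counts of each of the 8 genes, so the filter on low values did not choose among them.

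**Figure D1:**
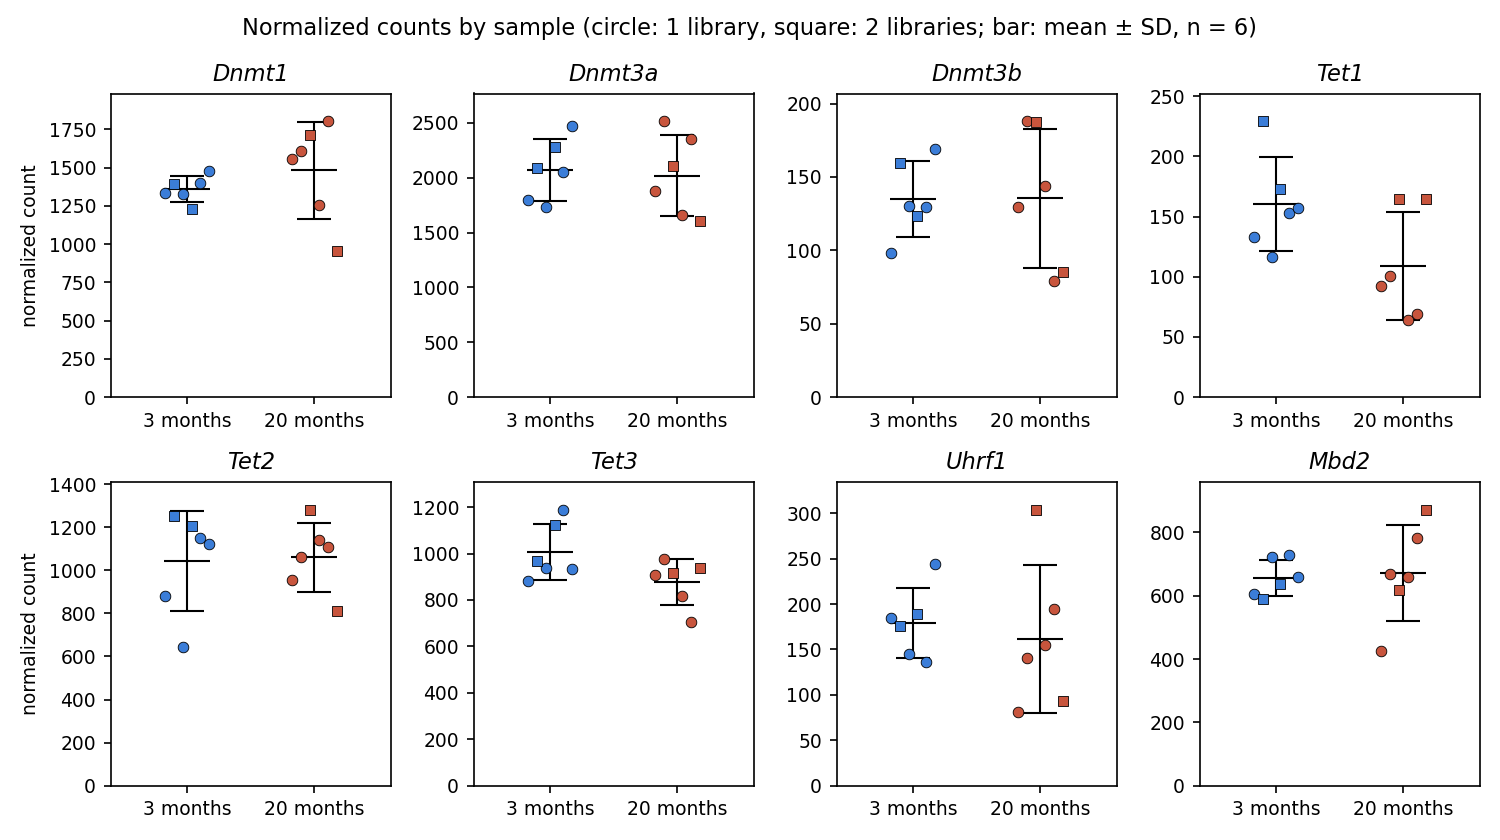
Normalized counts (vertical axes, each from 0) of the 8 genes in the 6 samples of each age; circles are samples with 1 library, squares samples with 2, and bars the mean ± SD. The ages overlap in every panel, and Tet1 is the gene in which the squares lie above all circles.

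Among the writers, Dnmt1, the maintenance methyltransferase, ran from 1233 to 1479 normalized counts in young samples, with a median of 1364. In aged samples it ran from 956 in aged 6 to 1804 in aged 5, with a median of 1582. The young samples lay close together, while 4 aged samples stood above all young ones and aged 6 below them all. The means were 1361 ± 82.7 and 1483 ± 319 (SD, n = 6 each), a 1.07-fold difference with a 95% interval from 0.886-fold to 1.28-fold (limma adjusted p = 0.887). The log2 difference of 0.09 ran from 0.03 without aged 5 and 0.05 without aged 3 to 0.21 without aged 6, where the limma adjusted p was 0.35.

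Dnmt3a, a de novo methyltransferase, ran from 1737 to 2473 normalized counts in young samples, with a median of 2069, and from 1606 to 2516 in aged samples, with a median of 1993. The ranges nearly coincided, and the fold difference was 0.97, with an interval from 0.817-fold to 1.15-fold (limma adjusted p = 0.942). A shift to fewer cells that express a gene and a shift to less RNA per cell cannot be told apart in sorted bulk samples, here or for the other genes.

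Dnmt3b, the second de novo enzyme and best known from early embryos, ran from 98.2 to 169 normalized counts in young samples, with a median of 130, and from 79.0 to 188 in aged samples, with a median of 137. Aged 5 and aged 6 (79.0 and 85.2) were below all young samples, and aged 2 and aged 3 (188 and 187) above them all. The means were 135 ± 25.7 and 136 ± 47.5 (SD, n = 6 each), and the interval of the fold difference reached from 0.694 to 1.34 (limma adjusted p = 0.966). With aged 5 and aged 6 left out, the samples whose strain label differs, the log2 difference was 0.27 (limma adjusted p = 0.601).

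Uhrf1, which reads hemimethylated DNA and guides Dnmt1 to it, varied most among the aged samples. It ran from 136 to 244 normalized counts in young samples, with a median of 180. In aged samples it ran from 81.3 in aged 1 to 304 in aged 3, with a median of 148. The highest aged sample was thus 3.74 times the lowest, and the aged values spanned the whole young range. The fold difference was 0.833 with an interval from 0.568 to 1.22 (limma adjusted p = 0.829), and its log2 value moved from -0.26 to -0.47 without aged 3 and to -0.10 without aged 1.

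The 3 Tet genes had different estimates of the age difference, but no difference between these genes was tested. Tet1 ran from 117 to 229 normalized counts in young samples, with a median of 155, and from 63.7 to 165 in aged samples, with a median of 96.5. Of the 6 aged samples 4 lay below all young samples, and aged 3 and aged 6 lay among them. The means were 160 ± 39.1 and 109 ± 45.1 (SD, n = 6 each), a fold difference of 0.651 with a 95% interval from 0.455 to 0.931. That interval is not adjusted for the number of genes tested, and the difference did not pass (limma adjusted p = 0.318). The unadjusted limma p of 0.0213 rose to 0.0595 without young 2, 0.0582 without aged 4 and 0.0521 without aged 5.

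Tet1 also differed with the number of libraries behind a sample. The 4 samples with 2 libraries stood at 173 and 229 normalized counts (young) and 164 and 165 (aged), above all 8 samples with 1 library, which reached at most 157. Such a full separation by library number, in either direction, was seen in 0.458% of tested genes and in no other gene of the 8. Within the samples with 1 library, young values ran from 117 to 157 and aged values from 63.7 to 100.6, with no overlap, and within those with 2 libraries aged values were again the lower. The aged samples lay below the young ones within the 1-library samples in 3.31% of tested genes, and within both kinds of sample in 1.12%. Recovered reads of Tet1 were 54 to 271 per sample with 1 library, against 358 to 2030 of Tet2, so its counting error is the larger. With the number of libraries as a covariate the log2 difference of -0.62 was unchanged and the limma adjusted p was 0.103. On the 8 samples with 1 library it was -0.79 with limma (adjusted p = 0.206), -0.78 with edgeR (0.222) and -0.78 with DESeq2 (0.0785). What sets the samples with 2 libraries apart for Tet1 was not tested.

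Tet2, the Tet gene best known from blood cells, ran from 646 in young 3 to 1254 in young 2, with a young median of 1135, and from 813 in aged 6 to 1282 in aged 3, with an aged median of 1084. All but 1 of the aged samples lay within the young range. The fold difference was 1.03 with an interval from 0.828 to 1.28 (limma adjusted p = 0.958).

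Tet3 ran from 882 to 1189 normalized counts in young samples, with a median of 953, and from 704 in aged 5 to 977 in aged 2, with a median of 913. Aged samples were lower than the young median in 5 of 6 cases, but only 2 were below the lowest young sample. The fold difference was 0.873 with an interval from 0.753 to 1.01 (limma adjusted p = 0.525), and the log2 value stayed between -0.23 and -0.13 in 26 alternative fits.

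Tet1 had the largest and Tet2 the smallest estimated age difference of the Tet genes, though neither passed. These genes were picked for that reason, and the DNA just upstream of their RefSeq start sites (GRCm38.p6, the same build as mm10) is shown. Any link of CpG number to the age difference was not tested. Every CpG, the site on which these enzymes act, is in capitals. Each stretch is 88 bases, 5′ to 3′ on the minus strand that carries both genes, and holds no exon annotated by GENCODE. The Tet1 stretch lies at chr10:62887325-62887412 and holds 6 CpG, and the Tet2 stretch lies at chr3:133544391-133544478 and holds 19. Methylation of these bases was not measured, and for both genes GENCODE places the outermost start further upstream, so both stretches lie inside the annotated gene.
Tet1: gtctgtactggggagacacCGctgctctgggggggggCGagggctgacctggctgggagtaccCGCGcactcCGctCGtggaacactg
Tet2: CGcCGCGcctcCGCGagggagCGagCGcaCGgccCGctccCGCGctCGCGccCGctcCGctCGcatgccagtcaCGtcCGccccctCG

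Mbd2, which binds methylated CpG and recruits the NuRD repressor complex, ran from 591 to 728 normalized counts in young samples, with a median of 649. In aged samples it ran from 426 in aged 1 to 872 in aged 6, with a median of 665. The means were 657 ± 57.3 and 672 ± 152 (SD, n = 6 each), so the centre was the same while the aged samples spread more widely. The fold difference was 1.00 with an interval from 0.818 to 1.23 (limma adjusted p = 0.999).

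**Figure D2:**
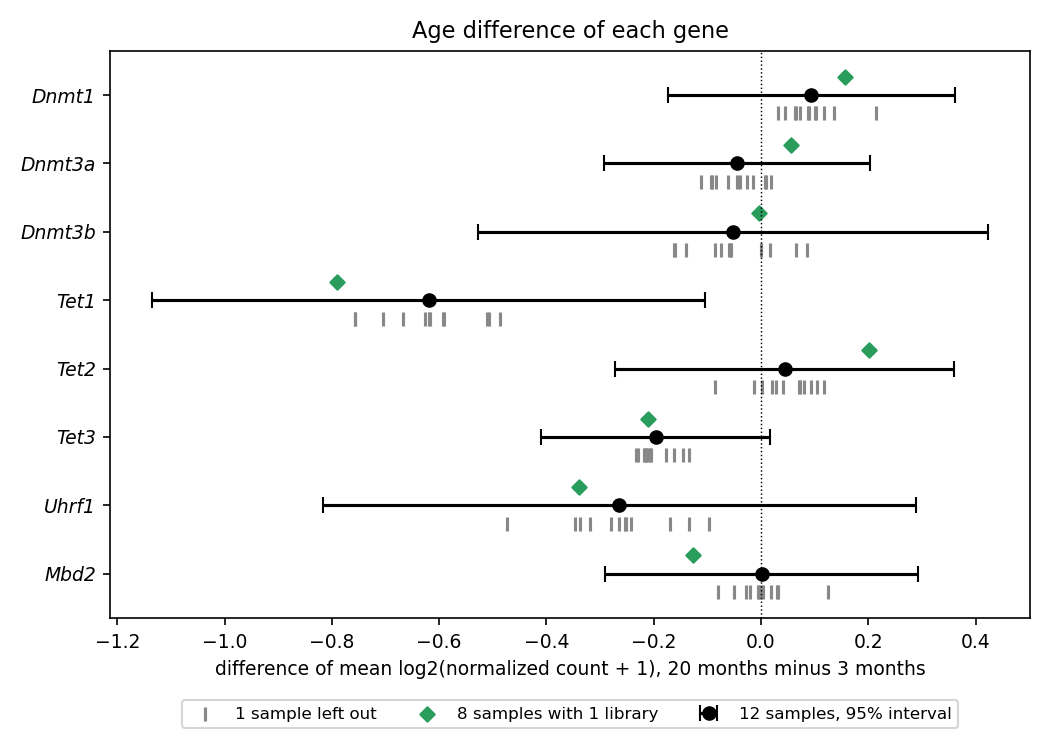
Difference of mean log2(normalized count + 1), 20 months minus 3 months (horizontal axis), for each gene: black points with 95% intervals from 12 samples, grey ticks with 1 sample left out, green diamonds from the 8 samples with 1 library. The interval of Tet1, from -1.13 to -0.10, is the only one that does not include 0; it is not adjusted for the 11579 genes tested, and it includes 0 when young 2, aged 4 or aged 5 is left out.

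Spread within an age differed between genes. The coefficient of variation was larger in aged samples in 6 of the 8 genes, as it was in 60.2% of tested genes, whose median was 13.4% in young and 15.3% in aged samples. For Dnmt1 it was 6.08% and 21.5%, for Mbd2 8.71% and 22.7%, and for Uhrf1 21.4% and 50.3%. Tet2, with 22.4% and 15.2%, and Tet3, with 12.1% and 11.4%, were the exceptions. No difference in spread was tested. The samples at the extremes were not always the same: aged 6 was the lowest aged sample for Dnmt1, Dnmt3a and Tet2 and the highest for Tet1 and Mbd2, and young 6 was the highest young sample for Dnmt1, Dnmt3a, Dnmt3b and Uhrf1.

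Levels of the 8 genes were compared with each other only after division by length. Per kb of all annotated exons (GENCODE M21, mm10), Mbd2 stood highest with a mean of 207 normalized counts per kb over the 12 samples, followed by Dnmt1 (193), Dnmt3a (123), Tet2 (62.3), Tet3 (56.4), Uhrf1 (40.0), Dnmt3b (26.5) and Tet1 (8.72). Dnmt3a was above Tet2, and Dnmt3b above Tet1, with no overlap between samples. Mbd2 exceeded Dnmt1 in 7 of 12 samples and Tet2 exceeded Tet3 in 8 of 12, so these neighbours do not have a settled order. Per kb of the longest coding sequence the order of the upper 3 changed, with Dnmt3a (751), Mbd2 (535) and Dnmt1 (293) at the head. The exons of Dnmt3a cover 16.6 kb and its longest coding sequence 2.72 kb. The lower 5 kept their order on that scale, from Tet2 (182) and Tet3 (174) to Uhrf1 (72.6), Dnmt3b (52.4) and Tet1 (22). There Dnmt3b and Tet1 overlapped, while Dnmt3b was the higher in 12 of 12 samples.

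**Figure D3:**
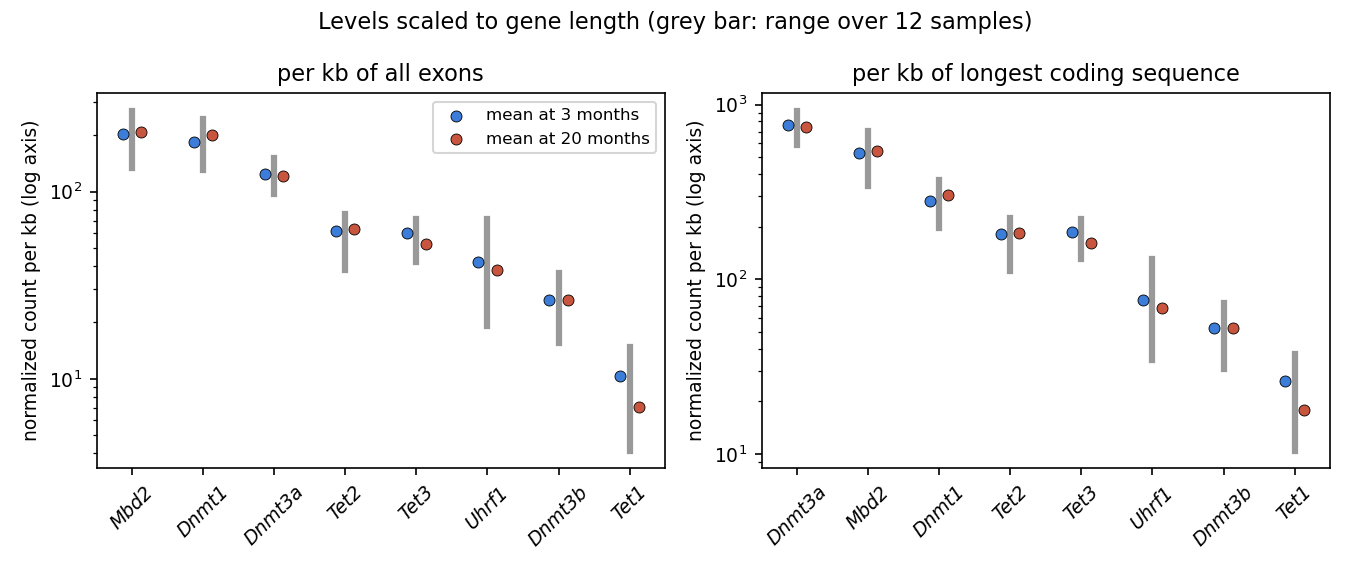
Normalized counts per kb (log axes) of the 8 genes, by all exons (left) and by the longest coding sequence (right), ordered by the mean; points are the mean of each age and grey bars the range over 12 samples. The widest gap between the means of the ages is in Tet1, which has the lowest level on both scales.

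The genes lie on separate chromosomes (mm10, GENCODE M21, all protein-coding): Dnmt1 at chr9:20907209-20959888, Dnmt3a at chr12:3806007-3914443, Dnmt3b at chr2:153649450-153687730 and Uhrf1 at chr17:56303321-56323486. Tet1 is at chr10:62804570-62908996, Tet2 at chr3:133463679-133545139 and Tet3 at chr6:83362373-83459084, while Mbd2 is on chromosome 18. The libraries do not mark strand. Dnmt3a, Dnmt3b and Tet2 overlap annotated antisense genes and Tet3 a noncoding gene on the other strand. On their own strand, Tet1 overlaps Gm48353 and Gm26479, Dnmt1 overlaps Mir7081, and Tet3 overlaps Mir6374 and 5430434F05Rik. Reads from any such pair cannot be told apart where exons overlap. Dnmt3aos, the antisense gene of Dnmt3a, has its own row, with a mean of 3.15 normalized counts.

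Co-variation over the 12 samples was examined with the mean of each age taken away. Of 28 pairs of the 8 genes, Dnmt1 and Dnmt3a had the highest correlation, with r = 0.688 (permutation p = 0.00757, adjusted over 28 pairs 0.212) and rho = 0.755 (permutation p = 0.00611, adjusted 0.171). It was 0.549 without the samples farthest from the median of Dnmt1, aged 5 and aged 6, and 0.801 in the 8 samples with 1 library. Dnmt3a and Tet2 had r = 0.595 (permutation p = 0.0386, adjusted 0.479) and rho = 0.476 (permutation p = 0.121, adjusted 0.561), and r = 0.597 without aged 2 and aged 6. Uhrf1 and Dnmt1, which work together at the replication fork, had r = 0.519 (permutation p = 0.0894, adjusted 0.479) and rho = 0.385 (permutation p = 0.22, adjusted 0.561), and r = 0.282 without aged 5 and aged 6. No pair passed after adjustment.

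**Figure D4:**
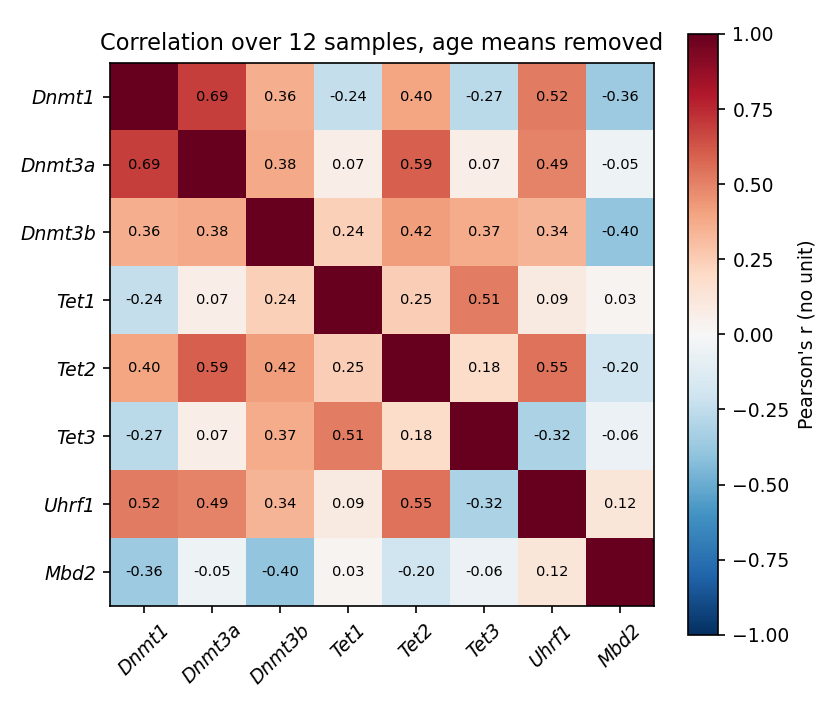
Pearson's r between the 8 genes over 12 samples, on log2(normalized count + 1) with the mean of each age removed (colour scale from -1 to 1). The highest value is that of Dnmt1 with Dnmt3a, 0.69, and the lowest that of Dnmt3b with Mbd2, -0.40, which is 0.09 without aged 5 and aged 6.

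The gene most like each of the 8 was found among 9717 others with at least 50 normalized counts on average, again with the mean of each age removed. These values are the highest of many, over 12 samples that share their depth and sorting, and have no test. Ptch1 was most like Dnmt1 (r = 0.959, rho = 0.930; r = 0.897 without aged 5 and aged 6), Chd6 most like Dnmt3a (r = 0.915, rho = 0.860) and Snx16 most like Dnmt3b (r = 0.865, rho = 0.867). The next were Fam129a for Dnmt1 (r = 0.955), Zzef1 for Dnmt3a (r = 0.902) and Gna14 for Dnmt3b (r = 0.864). Mmp28 followed Tet1 most closely (r = 0.883, rho = 0.846), Pcnt followed Tet2 (r = 0.895, rho = 0.881) and Erf followed Tet3 (r = 0.954, rho = 0.895), with Prickle3 (r = 0.848), Golgb1 (r = 0.874) and AI462493 (r = 0.934) next in that order. Cstf1 was most like Uhrf1 (r = 0.920, rho = 0.881; r = 0.770 without aged 1 and aged 3), with Mthfd1l, an enzyme of the mitochondrial folate cycle, next (r = 0.892). Eapp was most like Mbd2 (r = 0.929, rho = 0.923), with Pmepa1 next (r = 0.926). Without the samples farthest from the median of each of the 8 genes, r ran from 0.641 (Golgb1 with Tet2) to 0.936 (Chd6 with Dnmt3a). With age means removed, like genes need not share an age difference. Prickle3 had means of 248 in young and 302 in aged samples, while the aged mean of Tet1 was the lower.

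The wider machinery gave 0 calls in 7 lists (limma adjusted p), against 1.73% of tested genes. Of 10 tested genes listed as other methyltransferases or Dnmt partners, 9 lay below 0, against 49.5% of all tested genes, with a median log2 difference of -0.10. The common sign was not tested. Cdca7, which with the remodeller Hells opens chromatin for methylation, stood at 1431 ± 181 in young and 1220 ± 157 in aged samples (SD, n = 6; limma adjusted p = 0.412), and Hells itself at 39.5 ± 11.9 and 51.4 ± 17.4 (0.742). Uhrf2, the relative of Uhrf1, stood at 1497 ± 169 and 1366 ± 179 (limma adjusted p = 0.753) and Trim28, a co-repressor that protects imprints, at 3443 ± 560 and 3312 ± 528 (0.932).

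All 13 other genes listed from reader families were tested, with a median of -0.03. Whether each of them binds methylated DNA was not measured. Mbd4, a glycosylase that binds methylated CpG, was at 213 ± 42.9 and 254 ± 40.0 normalized counts, young before aged (SD, n = 6; limma adjusted p = 0.659), Mbd1 at 1074 ± 99.9 and 1177 ± 125 (0.721) and Mbd5 at 294 ± 23.5 and 274 ± 26 (0.855). Mbd3, with the highest mean count of that list, was at 2658 ± 336 and 2565 ± 322 (limma adjusted p = 0.924). Of the NuRD complex, a partner of Mbd2, 12 of 13 subunits were tested and the median was 0.02. Mta2, its tested subunit with the highest mean count, was at 6326 ± 278 and 6589 ± 253, and Hdac1, a deacetylase, at 1854 ± 98.6 and 1714 ± 122. Mta3 was at 445 ± 45.01 and 491 ± 62.8, and Gatad2b at 123 ± 22.6 and 108 ± 21.9 (limma adjusted p of these subunits from 0.66 to 0.823).

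Downstream of the Tet enzymes, 11 of 15 base excision genes were tested, with a median of -0.03. Parp1, a sensor of DNA breaks, measured 3294 ± 137 at 3 months and 3671 ± 225 at 20 months, with 5 of 6 aged samples above all young ones (SD, n = 6; limma adjusted p = 0.335). Gadd45g, a stress gene linked to demethylation, was at 352 ± 128 and 247 ± 49.2 (limma adjusted p = 0.533) and Smug1, a uracil glycosylase, at 708 ± 59.8 and 648 ± 59.9 (0.734). Among 11 tested Tet partners and CXXC proteins the median was 0.05. Ogt, the sugar transferase that binds Tet proteins, was at 4555 ± 584 and 5010 ± 476, Kdm2a at 1937 ± 388 and 2200 ± 363, Kmt2b at 395 ± 64.0 and 344 ± 57.2, and Cxxc5 at 9081 ± 776 and 9224 ± 657 (limma adjusted p from 0.672 to 0.949).

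Metabolites feed both reactions: S-adenosylmethionine is the methyl donor and 2-oxoglutarate the co-substrate of Tet. Of 24 methyl donor and folate genes 20 were tested, with a median of -0.04. Mat2a, which makes the donor, stood at 7813 ± 1503 and 8385 ± 1351 in young and aged samples (SD, n = 6; limma adjusted p = 0.86). Slc25a26, which carries it into mitochondria, stood at 248.6 ± 24.3 and 210 ± 38.8 (0.558), Slc19a1, a folate carrier, at 1794 ± 104 and 1621 ± 181 (0.554), and Folr2, a folate receptor and also a marker of border macrophages, at 35.9 ± 10.3 and 56.3 ± 22.2 (0.56). All 14 genes of the 2-oxoglutarate list were tested, with a median of 0.02. Got2 stood at 1529 ± 119 and 1756 ± 127, Idh2 at 6173 ± 501 and 5438 ± 515, Idh1 at 1676 ± 177 and 1495 ± 117, and Sdha at 8989 ± 784 and 9696 ± 991 (limma adjusted p from 0.304 to 0.735). The isocitrate dehydrogenases Idh1 and Idh2 make 2-oxoglutarate.

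**Figure D5:**
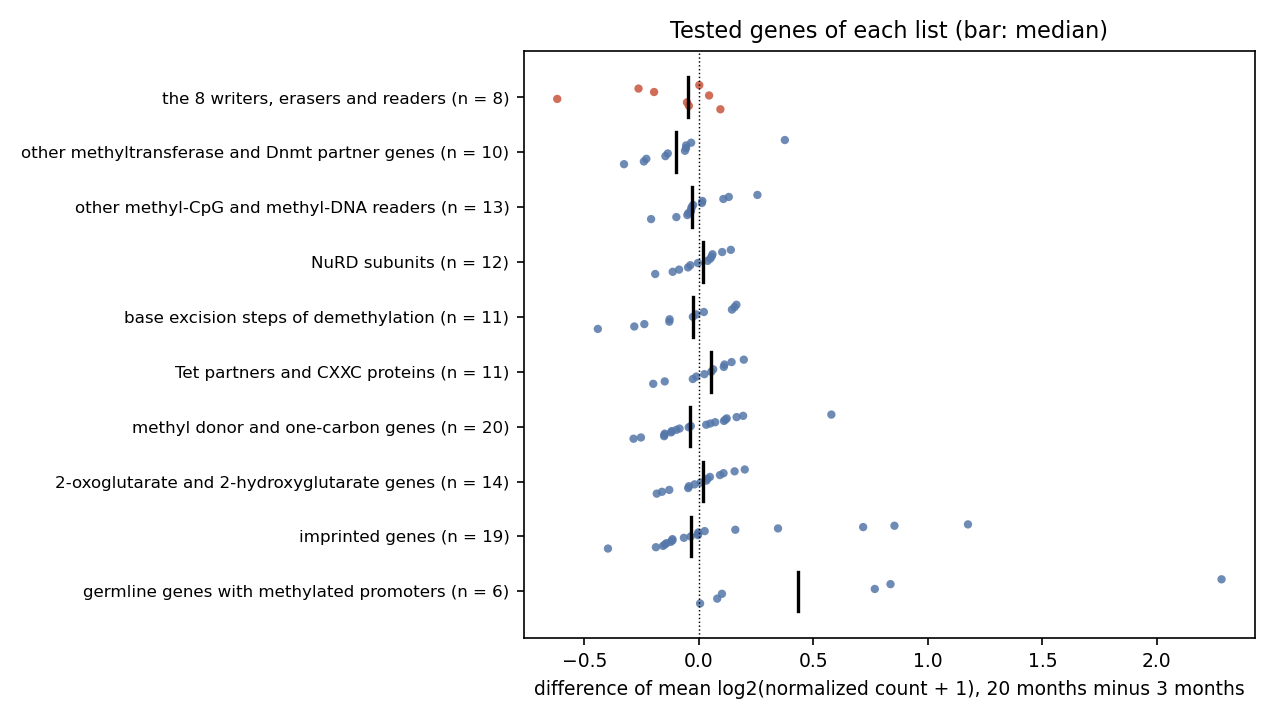
Difference of mean log2(normalized count + 1), 20 months minus 3 months (horizontal axis), of the tested genes of each list (points) with the list's median (black bar). No gene shown passed the test, and the medians of the pathway lists lie between -0.10 and 0.05.

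Genes reported as imprinted and germline genes were described in the same way. How far each depends on DNA methylation in these cells was not measured. Of 47 genes reported as imprinted in some tissue 19 were tested and 0 were called (limma adjusted p), with 13 below 0 and a median of -0.04. The smallest p-values were those of Copg2, at 1250 ± 222 and 1580 ± 230 normalized counts, Mkrn3, at 27.4 ± 14.3 and 61.2 ± 31.3, and Cd81, at 90844 ± 6360 and 101585 ± 9532 (SD, n = 6; limma adjusted p = 0.22, 0.226 and 0.438). Of 28 genes listed as germline genes with methylated promoters only 6 reached the filter, and 0 were called. A gene this low can pass through 1 age alone, so the common sign of those 6 has no weight. Syce1 stood at 6.29 ± 7.23 and 22.8 ± 13.9, Tex11 at 22.5 ± 23.2 and 31.7 ± 27.4, and Piwil2 at 7.28 ± 7.24 and 13.6 ± 10.03 (limma adjusted p = 0.196, 0.793 and 0.839).

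Uhrf1 and Dnmt1 are usually highest in dividing cells, so cell cycle genes were read beside them. All 30 genes of that list were tested and 0 were called by limma, with 18 above 0 and a median of 0.07. Cenpf, a centromere protein, stood at 38.3 ± 20.0 in young and 89.3 ± 26.4 in aged samples (SD, n = 6; limma adjusted p = 0.103), Top2a at 99.3 ± 18.4 and 138 ± 45.3 (0.498) and Mcm6 at 1001 ± 57.3 and 1143 ± 170 (0.539). Cenpf was called by DESeq2 on the 8 samples with 1 library (adjusted p = 0.00577), while limma and edgeR called 0 genes of the list in these samples. Of the 30 genes 12 lay below 0.

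Markers of other cells that the sort could hold were low beside those of microglia, whose 10 genes summed to 66616 to 72195 CPM (the sample's normalized total scaled to 1 M) in young and 61059 to 66867 CPM in aged samples. Of those 10, 7 lay below 0 and 1 was called lower in aged samples, Fcrls, at 123873 ± 5703 against 89490 ± 6869 normalized counts (SD, n = 6; limma adjusted p = 0.000382). Of 4 tested astrocyte markers 1 was called higher, Aldh1l1, at 19.4 ± 8.37 against 57.2 ± 26.5 (SD, n = 6; limma adjusted p = 0.0411). Neuron markers summed to 3.03 to 6.25 CPM in young and 3.87 to 5.97 CPM in aged samples. Monocyte markers were higher in aged samples, at 5.51 to 6.63 CPM against 2.44 to 5.03 CPM, with Ly6c2 and Vcan under 10 normalized counts in every sample. Choroid plexus markers ran from 9.95 to 49.4 CPM in young and from 16.6 to 132 CPM in aged samples, with 5 of 5 tested members above 0 (median log2 difference 1.21, none called by limma). Border macrophage markers ran from 8.49 to 14.7 CPM in young and from 6.97 to 29 CPM in aged samples. Mrc1, their member with the highest mean count, had means of 225.5 and 207 normalized counts. Cd163 (12.6 and 43.2), F13a1 (33.2 and 97.7) and Lyve1 (4.33 and 14.6) had higher aged means. Of the border macrophage markers, 5 of 6 tested members lay above 0 (median log2 difference 0.82, 3 at an unadjusted limma p under 0.05, none called). Astrocyte markers summed to 208 to 259 CPM in young and 214 to 283 CPM in aged samples, most of it Slc1a3, with means of 6091 and 6351 normalized counts. All 4 tested astrocyte markers lay above 0 (median log2 difference 0.57), with Gfap at means of 20.95 and 42.8 and Aldoc at 48.8 and 73.1. A low marker can pass the filter through 1 age alone. The common signs and medians of the choroid plexus, border macrophage and astrocyte markers therefore have no weight. Oligodendrocyte markers summed to 221 to 259 CPM in young and 224 to 264 CPM in aged samples, and endothelial and mural markers to 56.5 to 75.0 and 50.5 to 81.4 CPM. Neutrophil markers reached at most 11.8 CPM and B and T cell markers at most 0.879 CPM. The part of any of these cells in the values of the 8 genes was not tested.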

How the data were processed

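Hippocampal microglia of 12 samples, 6 per age, were compared. Per the design text, STAR aligned the reads after bcl2fastq and fastx_trimmer, samtools gave the counts and DESeq2 the authors' comparison; the submitters' processing notes name mm10. No version or annotation is given in the sources used here. Values deposited by the authors are normalized counts (a signal, never below 0) in a single table of gene symbols. It has 12 sample columns. In the 8 columns of samples with 1 library, whole reads were recovered: 100% of values up to 5000 steps lay within 0.1 of a whole number of steps. In the 4 columns of samples with 2 libraries, 100% of values up to 5 were sums of whole multiples of 2 steps (within 0.0005), and depth was estimated by taking both libraries to have equal normalized totals.

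Genes with at least 10 normalized counts in at least 6 samples were tested. Values were taken as log2(normalized count + 1), on which fold changes of low genes are understated, and ages compared with limma 3.58.1 in R 4.3.3 (mean-variance trend, two-sided, Benjamini-Hochberg at 0.05 over all tested genes). Intervals are limma's, unadjusted. The 26 alternative fits changed the pseudocount, filter, scaling, variance model, samples or test, with edgeR 4.0.16 and DESeq2 1.42.0 on recovered reads. The fit was tested on simulated data. Correlations used 100000 permutations, two-sided. In each list the genes named were the 3 with the smallest p and any called. Pathway lists also gave the gene with the highest mean normalized count, not divided by length. The cell cycle list was treated like a target list, and marker genes were named if called. The 2 genes most like each of the 8 had the highest Pearson's r. Marker sums are CPM, scaled to the column's normalized total. Lengths and locations are from GENCODE M21 and upstream sequences from RefSeq (GRCm38.p6), which matched 7 of the 8 genes. The 8 genes and all lists were chosen with earlier results of these data known.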

Additional observations from a re-analysis of the deposited data

How the results depend on the processing

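The count of called genes among the 8 was 0 in all 26 alternatives, and Tet1, Tet3 and Uhrf1 kept their sign in each of them. Tet1 ran from -0.79 on the 8 samples with 1 library to -0.28 on the 4 with 2, and its smallest adjusted p was 0.0785 (DESeq2). The other 5 genes, none of them called, changed sign in places. On the 4 samples with 2 libraries the log2 difference was -0.0315 for Dnmt1 and -0.27 for Tet2. On the 8 samples with 1 library it was 0.0557 with limma, 0.0616 with edgeR and 0.0611 with DESeq2 for Dnmt3a, and -0.13, -0.10 and -0.10 for Mbd2, while Dnmt3b stood at 0.0262 with edgeR and 0.0273 with DESeq2. With aged 5 and aged 6 left out it was 0.27 for Dnmt3b and -0.17 for Mbd2, and quantile normalization gave -0.0236 for Mbd2. Fits that left out 1 sample ran from 0.0307 to 0.2136 for Dnmt1, -0.1115 to 0.018 for Dnmt3a, -0.1623 to 0.0858 for Dnmt3b, -0.0867 to 0.1178 for Tet2 and -0.0808 to 0.1254 for Mbd2. The cause of these changes was not tested; every value lies within the main 95% interval of its gene. Over all genes 147 were called higher and 53 lower. Leaving out 1 sample gave 27 (without young 5) to 60 lower, with 35 without young 1, young 4 or aged 2, 32 without young 2 and 30 without young 6. The 8 samples with 1 library gave 67 higher and 11 lower with limma, 76 and 15 with edgeR and 184 and 51 with DESeq2, and the 4 with 2 libraries 18 and 1; the cause was not tested. With the sample number as a replicate block 115 were higher and 30 lower. The labels give no shared litter or day for a number, same-numbered samples had correlations from -0.121 to 0.107, and 1 of 6 young samples correlated best with its own number, so the numbers were not taken as pairs. No call among the 8 genes changed under the block. Of the lists, Cpeb1, a gene of the germline list chosen here after its values were seen, was called with no filter (limma adjusted p = 0.0355), and Cenpf by DESeq2. Dnmt3b, Tet1 and Uhrf1 had the lowest mean normalized counts of the 8 genes, with 40 to 271 recovered reads per sample with 1 library. Counting error is thus largest for these genes, and its part in their spread was not tested.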

Other observations

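The RefSeq windows from 250 bases before to 50 bases after a start site differed widely in CpG content among the 7 genes that have one. Over all 32851 windows the median was 7 CpG. The single Tet2 window held 57, more than 99.8% of windows had, Dnmt3b held 30, Tet3 22 and Tet1 17. Dnmt3a has 3 windows, with 46, 47 and 18 CpG, and Uhrf1 has 2, with 12 and 33. The 3 windows of Dnmt1 held 2, 12 and 33, so the CpG-poorest and a CpG-rich window belong to the same gene. Which start site these cells use was not measured. None of the 16 groups of 6 samples (8 genes at 2 ages) had a sample far enough from the others to pass Dixon's 95% criterion for the gap over the range.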
